A study of Rattus norvegicus with 15 samples.

Results

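The liver genes described here are 27 genes of cholesterol synthesis and of its control by SREBP2, taken from a named list of enzymes, regulators and sterol carriers and found on the array by the gene name printed for each probe. Of the 27, 26 had a probe and 25 could be tested, among 20442 tested of 36764 features in all. Liver RNA of 15 female rats of the Wistar Crl:WI stock, aged 2 to 3 months, was read on 1 one-colour array per rat. The 8 rats of the fipronil group received the insecticide fipronil by feeding needle at 3 mg/kg/day for 14 days. The 7 rats of the vehicle group received the carrier, methylcellulose with Tween 80 in water, in the same way. The labels count each array as a separate rat, RNA came from a fragment of the large lobe, and fragments hold all liver cell types, so fewer cells of a type and less RNA per cell cannot be told apart.

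Liver cells build cholesterol from acetyl-CoA, first as mevalonate and then as prenyl chains, squalene and the sterol ring. SREBP2, encoded by Srebf2, is a transcription factor held in the endoplasmic reticulum by its escort SCAP and by the INSIG proteins while sterol is plentiful. When sterol falls, SCAP carries SREBP2 to the Golgi, where it is cut, and the freed part raises transcription of the synthesis genes together in the nucleus, with the help of the factors NF-Y and Sp1.

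Promoters of 4 members are shown because Hmgcs1 and Idi1 varied together from rat to rat, as given further on, and because Insig1 and Insig2 encode the paired retention proteins, of which 1 was called. Each is the stretch of 250 bases before the start annotated by RefSeq on build GRCr8, read 5′ to 3′ on the strand of the gene, and capitals mark CCAAT or its reverse complement, the letters bound by NF-Y. The coordinates are chr2:53382054-53382303 on the plus strand for Hmgcs1 and, on the minus strand, chr17:66547525-66547774 for Idi1, chr4:8057770-8058019 for Insig1 and chr13:35040099-35040348 for Insig2.
Hmgcs1: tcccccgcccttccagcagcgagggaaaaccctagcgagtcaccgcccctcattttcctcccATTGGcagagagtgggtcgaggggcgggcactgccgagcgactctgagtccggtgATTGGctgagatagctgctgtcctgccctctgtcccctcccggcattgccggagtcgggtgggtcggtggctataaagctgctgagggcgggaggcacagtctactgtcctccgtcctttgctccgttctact
Idi1: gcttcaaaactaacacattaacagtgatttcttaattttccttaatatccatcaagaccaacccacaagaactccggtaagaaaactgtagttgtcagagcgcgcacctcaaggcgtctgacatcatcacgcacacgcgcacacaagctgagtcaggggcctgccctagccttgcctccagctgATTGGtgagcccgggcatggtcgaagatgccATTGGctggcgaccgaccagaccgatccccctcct
Insig1: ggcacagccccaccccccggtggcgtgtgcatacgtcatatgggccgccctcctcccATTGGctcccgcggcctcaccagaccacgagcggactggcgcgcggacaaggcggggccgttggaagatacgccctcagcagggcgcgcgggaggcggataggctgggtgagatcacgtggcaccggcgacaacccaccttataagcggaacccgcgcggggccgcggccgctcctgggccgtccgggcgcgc
Insig2: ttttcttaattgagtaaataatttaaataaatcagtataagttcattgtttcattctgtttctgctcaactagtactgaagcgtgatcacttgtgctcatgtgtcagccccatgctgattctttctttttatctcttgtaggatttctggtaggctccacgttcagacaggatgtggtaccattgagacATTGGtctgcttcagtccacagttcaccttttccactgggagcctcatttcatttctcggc
Hmgcs1 and Idi1 each held 2 matches, and Insig1 and Insig2 held 1 each.

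A promoter was found for 22 of the 27 members, and none was matched for Fdft1, Pmvk, Soat2, Sqle and Stard4. CCAAT stood on either strand in 17 of the 22, against 34.0% of 33469 promoters of the same length. GGGCGG, the letters of an Sp1 site, also stood in 17 of the 22, against 30.5% of all. The Srebf2 promoter itself held 1 CCAAT and 4 GGGCGG, while Mvk and Nsdhl held 5 CCAAT each. A sterol regulatory element spelled TCACNCCAC, the letters bound by SREBP2, was found in 0 of the 22 and in 0.974% of all promoters. The shorter spelling CACNCCAC, tried after that result was seen, was found in Acat2, Ebp and Insig1 and in 4.89% of all. CCAAT and GGGCGG overlapped in 0 of the member promoters. These matches are letters in a window and were not measured as binding.

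Signal below means log2 processed intensity minus the array's own 75th percentile, taken over the probes that are not controls, so that 0 is the level of that percentile and 1 unit is a doubling. A level is not comparable between genes, because each probe binds with its own strength. Differences are fipronil minus vehicle on the log2 scale, tested with limma across all 20442 features with Benjamini-Hochberg adjustment, and a gene is called at an adjusted p under 0.05. In that comparison 0.861% of all features were called, 0.548% higher and 0.313% lower with fipronil. Array brightness, the 75th percentile itself, was 210 ± 25.8 intensity units in the fipronil group (SD, n = 8) and 172 ± 33.3 in the vehicle group (SD, n = 7). The arrays came from 4 slides, each with rats of both groups, and any pair of arrays correlated across features between 0.967 and 0.991. Slide 1 held fipronil 1 and 2 with vehicle 1 and 2, and slide 2 fipronil 3 and 4 with vehicle 3 and 4. Slide 3 held fipronil 5 and 6 with vehicle 5 alone, and slide 4 fipronil 7 and 8 with vehicle 6 and 7. Differences by slide rest on these few rats.

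Of the 25 members tested, 1 was called higher with fipronil, Insig2, and 0 were called lower. At an unadjusted p under 0.05, limma gave 2 members higher, Insig2 and Sc5d, and 2 lower, Soat2 and Fdps, against 6.15% of all features higher and 11.3% lower. The Fdps probe was saturated on 14 of 15 arrays. Differences were positive in 13 members and negative in 12, with a median of 0.01 beside -0.03 over all features tested. The groups overlapped in 24 of the 25, and 20 lay within 0.25 of 0. The 95% interval stayed within 0.6 of 0 in 20 members as well. Shares over all features are not given for overlap or for these limits, so the counts are description only. Npc1l1, the intestinal and hepatic sterol importer, was above background on 0 of 15 arrays, and no probe was matched to Npc1, the lysosomal sterol exporter.

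**Figure D1:**
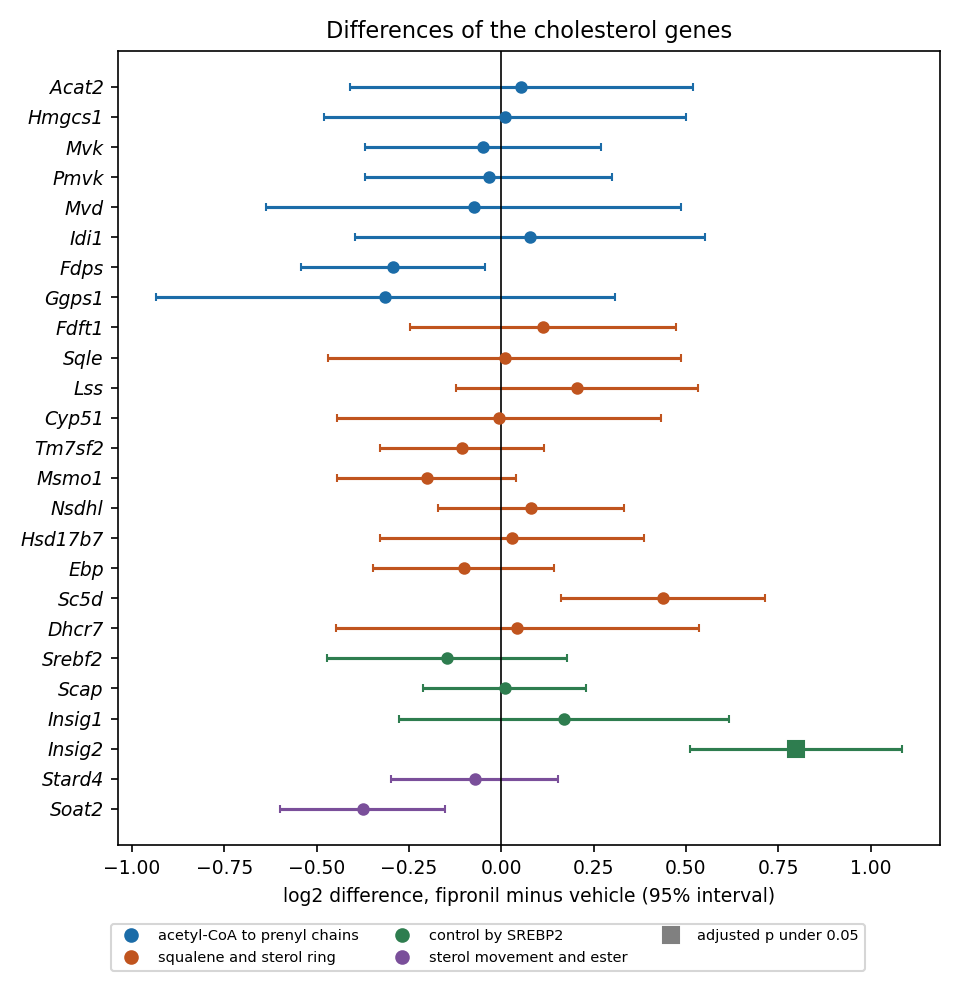
Log2 difference, fipronil minus vehicle, of the 25 tested members (point, with 95% interval), coloured by role, with a square for an adjusted p under 0.05. Insig2, at 0.80, is the square, and the intervals of the remaining members but Fdps, Sc5d and Soat2 cross 0.

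Insig2 encodes one of the paired membrane proteins that retain SCAP and SREBP2 in the endoplasmic reticulum, and it rose with fipronil. Its signal ran from 3.42 to 4.26 in the vehicle rats, with a median of 4.03, and from 4.44 to 5.16 in the fipronil rats, with a median of 4.75. Every fipronil rat stood above every vehicle rat, a pattern whose share among all features is not given here. The difference was 0.80 (SE 0.14, limma adjusted p = 0.00911), which is 1.74-fold (95% interval 1.42 to 2.12). It was higher on each of the 4 slides, by 0.73, 0.58, 0.61 and 1.25. A second Insig2 probe moved from 1.23 to 2.19, a difference of 0.96 with a limma adjusted p of 0.00769 over 23242 probes. The first probe lies at 33333061 to 33333298 on chromosome 13 of rn4, the build named in the array files. The call was lost with array brightness as a covariate (difference 0.77, limma adjusted p = 0.110) and without slide 1 (0.82, limma adjusted p = 0.117).

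Insig1 encodes the partner protein, and is itself a target of SREBP2. It ran from 6.51 to 7.82 in the vehicle rats (median 7.29) and from 6.91 to 8.25 in the fipronil rats (median 7.32). The groups overlapped almost entirely. The difference was 0.17 (SE 0.21, limma adjusted p = 0.731), and 3 further Insig1 probes differed by 0.21, 0.29 and 0.30. Vehicle 1 held the lowest value and fipronil 6 the highest. Whether Insig1 and Insig2 responded differently was not tested.

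Srebf2, which encodes SREBP2, had a signal below the 75th percentile of its array in every rat. It ran from -1.69 to -1.03 in the vehicle rats (median -1.54) and from -2.22 to -1.14 in the fipronil rats (median -1.61). The spread was wider with fipronil, where fipronil 7 and fipronil 8 were lowest. The difference was -0.15 (SE 0.15, limma adjusted p = 0.670). A second Srebf2 probe differed by -0.29 (limma adjusted p = 0.362), but the probes did not follow each other over the 15 rats (r = 0.10, permutation p = 0.753; rho = -0.03, permutation p = 0.916). Values of Srebf2 between rats therefore depend on the probe chosen.

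Scap, which encodes the escort of SREBP2, had the smallest spread within groups among the 25 members, with an SD of 0.194. It ran from 4.75 to 5.20 in the vehicle rats (median 4.84) and from 4.62 to 5.25 in the fipronil rats (median 4.94). The difference was 0.01 (SE 0.10, limma adjusted p = 0.977), with a 95% interval from -0.21 to 0.23. Thus 1 of the 4 control genes was called, and their median difference was 0.09.

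**Figure D2:**
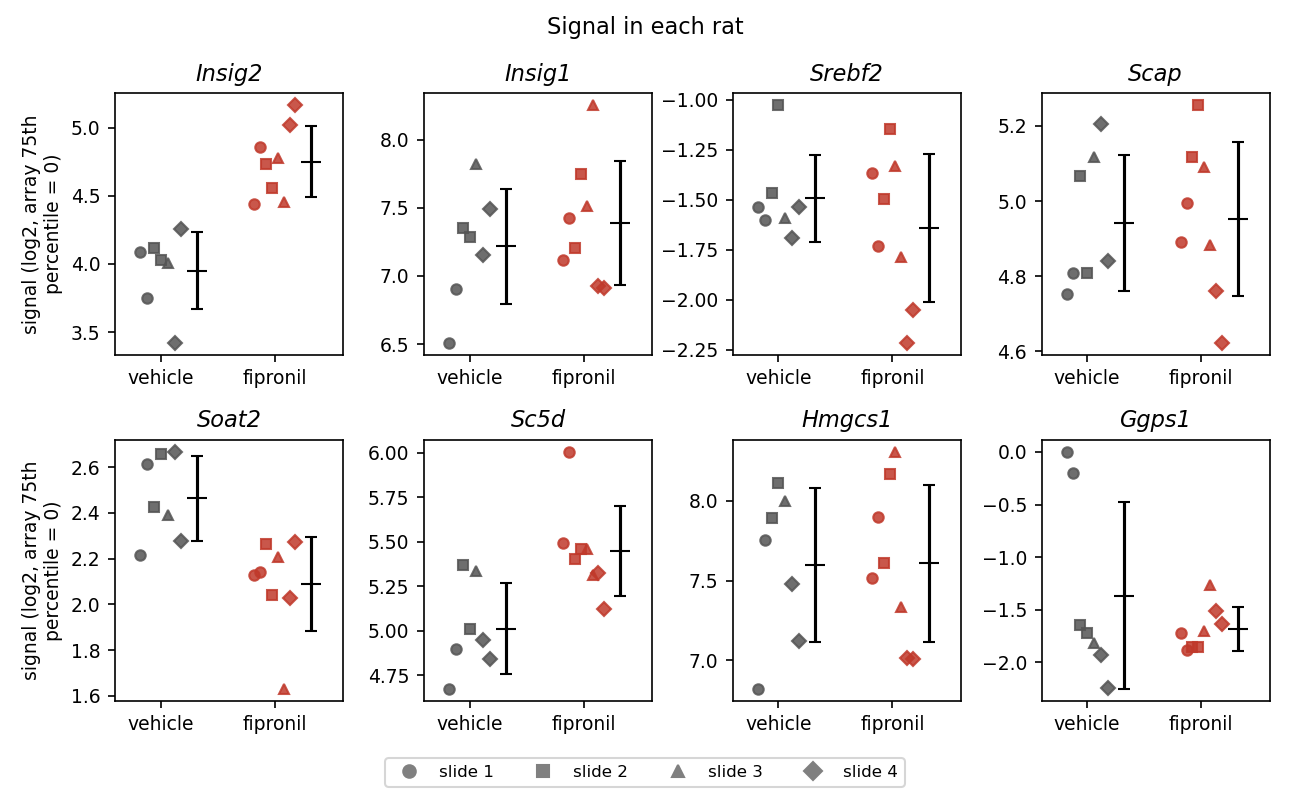
Signal of 8 members in each rat (log2, array 75th percentile = 0), by group, with the marker shape for the slide and a black bar for mean ± SD (n = 7 vehicle, n = 8 fipronil). The groups separate for Insig2 alone, and vehicle rats of slide 1 stand near 0 for Ggps1.

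Of the 8 genes from acetyl-CoA to prenyl chains, 0 were called, with a median difference of -0.04. Hmgcs1, the cytosolic synthase that makes HMG-CoA, ran from 6.82 to 8.12 in the vehicle rats (median 7.76) and from 7.01 to 8.31 in the fipronil rats (median 7.56). Its difference was 0.01 (SE 0.23, limma adjusted p = 0.990), against an SD within groups of 0.486 that exceeded that of 88.3% of features, and its probe was saturated on 1 fipronil array. The 95% interval, -0.48 to 0.50, is wide, and rats within each group differed by more than 1 unit. Acat2, which condenses acetyl-CoA, differed by 0.05, and the mevalonate kinases Mvk and Pmvk by -0.05 and -0.03. Mvd, the decarboxylase of the mevalonate route, differed by -0.07 and Idi1, the isomerase of its product, by 0.08.

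Fdps, which makes farnesyl diphosphate, was saturated on 6 of 7 vehicle arrays and on 8 of 8 fipronil arrays, so that no fold is given. Measured signal ran from 8.29 to 9.10 in the vehicle rats (median 8.51) and from 7.97 to 8.51 in the fipronil rats (median 8.34). The groups overlapped, and the difference of -0.29 (SE 0.12) had a limma adjusted p of 0.221. A second probe, with means of 8.35 in the vehicle and 8.11 in the fipronil rats, differed by -0.24 (limma adjusted p = 0.190). Its saturation is not given here. The authors' deposited values for the first probe gave 0.00.

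Ggps1, which extends farnesyl diphosphate to geranylgeranyl diphosphate for protein prenylation, had the largest spread within groups, an SD of 0.622. It ran from -2.25 to 0.00 in the vehicle rats (median -1.72) and from -1.88 to -1.27 in the fipronil rats (median -1.71). The vehicle rats of slide 1 stood at 0.00 and -0.20, and the other 5 between -2.25 and -1.64. The difference was -0.31 (SE 0.29, limma adjusted p = 0.627). It was -1.70 on slide 1, and without that slide it turned to 0.23.

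Of the 11 genes of squalene and the sterol ring, 0 were called, with a median difference of 0.03. Squalene synthase, encoded by Fdft1, differed by 0.11, and squalene epoxidase, encoded by Sqle, by 0.01. The sterol demethylase Cyp51 differed by -0.01, and Nsdhl and Hsd17b7, which act in removal of methyl groups from the ring, by 0.08 and 0.03. The isomerase Ebp differed by -0.10, and Dhcr7, a reductase of the last steps, by 0.04. The reductase Tm7sf2 differed by -0.11, and its probe was saturated on 2 fipronil arrays.

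Sc5d, a sterol desaturase near the end of the route, had the second-largest positive difference among the members and did not pass. It ran from 4.67 to 5.37 in the vehicle rats (median 4.95) and from 5.12 to 6.01 in the fipronil rats (median 5.43). The groups overlapped, and 8 of 8 fipronil rats lay above the vehicle mean of 5.01. The difference was 0.44 (SE 0.13, limma adjusted p = 0.117; 95% interval 0.16 to 0.71). By slide it was 0.97, 0.24, 0.05 and 0.33. The difference was 0.25 without slide 1.

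Msmo1, a methylsterol oxidase, was saturated on 4 vehicle and 6 fipronil arrays. It ran from 7.76 to 8.51 in the vehicle rats (median 8.33) and from 7.83 to 8.31 in the fipronil rats (median 8.19). The difference was -0.20 (SE 0.11, limma adjusted p = 0.380), and the authors' deposited values gave 0.01. Lss, which closes squalene epoxide into the ring of lanosterol, ran from 1.53 to 2.01 in the vehicle rats (median 1.84) and from 1.52 to 2.71 in the fipronil rats (median 2.00). The difference was 0.21 (SE 0.15, limma adjusted p = 0.528). The fipronil values enclosed those of the vehicle rats on both sides.

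Soat2, which esterifies cholesterol for storage and lipoprotein export, had the most negative difference among the 25 members and did not pass. It ran from 2.22 to 2.67 in the vehicle rats (median 2.42) and from 1.63 to 2.27 in the fipronil rats (median 2.13). The groups overlapped at their edges, and 0 of 8 fipronil rats reached the vehicle mean of 2.46. The difference was -0.37 (SE 0.11, limma adjusted p = 0.0996; 95% interval -0.60 to -0.15). It was lower on each slide, by -0.28, -0.39, -0.47 and -0.32. Stard4, a soluble sterol carrier, differed by -0.07.

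The differences of the enzymes were not alike on the 4 slides. Of the 19 synthesis enzymes, 14 were higher with fipronil on slide 1, but 7 were higher on slide 2, 4 on slide 3 and 3 on slide 4. Acat2, Hmgcs1, Mvd, Idi1, Sqle, Cyp51 and Dhcr7, 7 in all, were higher on slide 1 and lower on each of the others. Hmgcs1, for example, differed by 0.42, -0.11, -0.18 and -0.29. On slide 1 the vehicle group included vehicle 1, in which 1 of 19 enzymes stood above the group mean. Without slide 1 the median of the 25 members was -0.12, and without slide 4 it was 0.09.

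The enzymes varied together between rats within a group. After group means were removed, the 171 pairs of the 19 enzymes had a median r of 0.656, and 81 pairs, or 47.4%, exceeded 0.7. Over all pairs of 20358 features without a missing value, the median was 0.01 and 1.08% exceeded 0.7. With slide means removed as well, the values were 0.643 and 45%, against 2.05% of all pairs. With array brightness removed they were 0.714 and 51.5%, against 1.03%. The pairs share the same 15 arrays and are given as a description.

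The same rats were high or low for most enzymes. Among the fipronil rats, fipronil 4 and fipronil 5 stood above the group mean for 17 and 18 of the 19 enzymes. Fipronil 7 and fipronil 8, on slide 4, stood above it for 2 each, and fipronil 6, on slide 3 with fipronil 5 and vehicle 5, for 5. Among the vehicle rats, vehicle 2 and vehicle 5 stood above the mean for 17 enzymes each, and vehicle 1 for 1. Vehicle 6 and vehicle 7, also on slide 4, stood above it for 5 and 4. All 4 rats of slide 4 thus stood below the mean of their group for most enzymes, but so did fipronil 3, fipronil 6 and vehicle 1 of other slides. The part of the slide in the shared variation was not tested beyond the values with slide means removed. The part of the replicate number was not tested. Hmgcs1 deviations of same-numbered rats are given here from number 1 to 7, fipronil then vehicle. They were -0.09 and -0.78, 0.29 and 0.16, 0.004 and 0.30, 0.56 and 0.52, 0.70 and 0.40, -0.27 and -0.12, and -0.59 and -0.48. The sign was the same within each number.

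**Figure D3:**
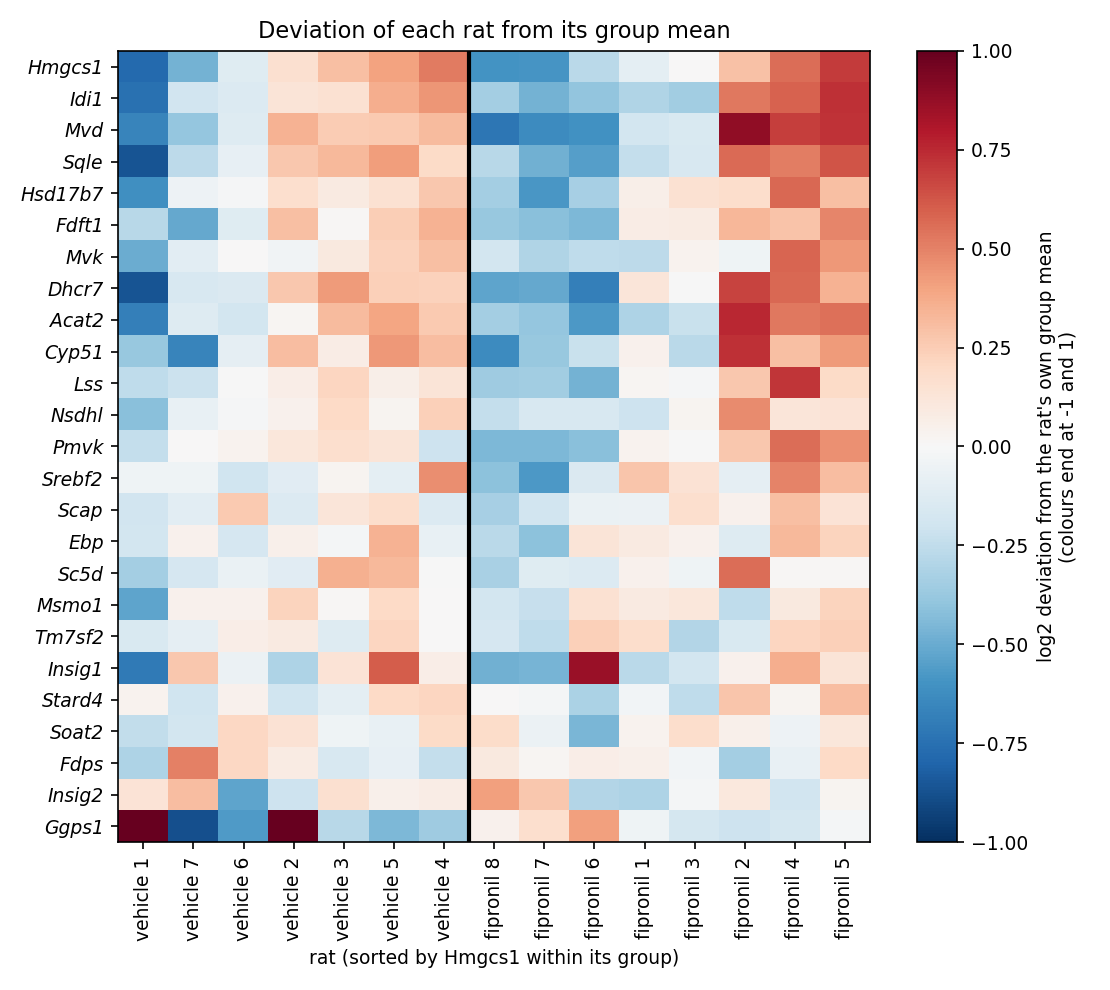
Deviation of each rat from the mean of its own group (log2, colour, ends at -1 and 1) for the 25 tested members, with rats sorted by Hmgcs1 within each group and genes by their correlation with Hmgcs1. Most enzymes turn from blue to red along the same order of rats, whereas Fdps, Insig2 and Ggps1 at the foot do not.

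Hmgcs1 was set against each of the other 24 members after group means were removed, with permutation within groups (100000 draws, two-sided) and Benjamini-Hochberg adjustment over the 24. Of these, 17 correlated positively at an adjusted permutation p under 0.05. The same test was not run over all features, so this count and those below have no background share beside them. The draws held neither slide nor replicate number fixed, so they treat the rats of a group as exchangeable. Idi1 was closest (r = 0.93, adjusted permutation p = 8e-05; rho = 0.90, adjusted permutation p = 0.00024). Mvd and Sqle followed at r = 0.92 each and Hsd17b7 at 0.90, with rho of 0.90, 0.90 and 0.95. The unadjusted p of Idi1, 1e-05, is the smallest that these permutations can give. A second Idi1 probe followed the first at r = 0.98 and a second Hmgcs1 probe at r = 0.87.

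The 4 control genes were set against Hmgcs1 in the same way, and differences between their correlations were not tested. Srebf2 (r = 0.68, adjusted permutation p = 0.0138; rho = 0.66) and Scap (r = 0.65, adjusted permutation p = 0.0205; rho = 0.64) were among the 17. With slide means removed, r was 0.42 for Srebf2 and 0.51 for Scap. In the same order r was 0.43 and 0.35 within the vehicle rats, and 0.84 and 0.87 within the fipronil rats. The Srebf2 value rests on 1 probe, which its second probe did not follow (r = 0.10). Insig1 reached r = 0.49 (adjusted permutation p = 0.0986; rho = 0.56) and Insig2 r = -0.28 (adjusted permutation p = 0.350; rho = -0.30). The Insig2 values of the rats therefore gave no detectable relation to those of Hmgcs1 with 15 rats.

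The other members outside the 17 were Tm7sf2 (r = 0.51), Stard4 (0.48), Soat2 (0.37), Fdps (-0.22) and Ggps1 (-0.32). For Fdps, whose probe was saturated on 14 of 15 arrays, r was 0.44 after background correction with normexp and quantile normalization, -0.45 with array brightness removed and -0.78 without the 2 rats farthest in Hmgcs1, so its sign depends on the setting. Without those rats, vehicle 1 and fipronil 5, 14 of 24 members passed, and Idi1 kept an r of 0.87. Msmo1, saturated on 10 arrays, had r = 0.28 without them against 0.61 in all, so that on this signal its relation rests on those rats, while r over all 15 was 0.81 with array brightness removed and 0.82 after normexp and quantile normalization. Within the fipronil rats alone 14 members passed and within the vehicle rats alone 11, with Idi1 at r = 0.91 and 0.97.

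**Figure D4:**
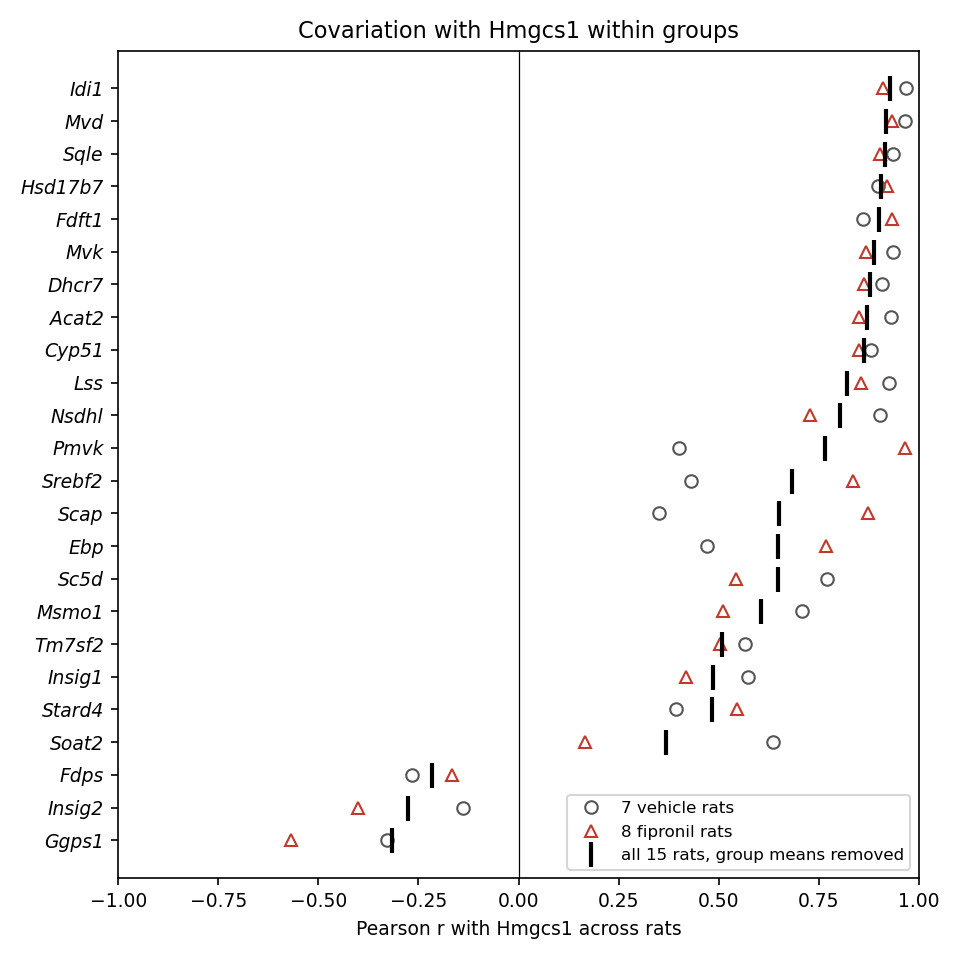
Pearson r with Hmgcs1 across rats for 24 members, in the 7 vehicle rats (circles), in the 8 fipronil rats (triangles) and in all 15 with group means removed (bars). From Idi1 down to Nsdhl circles and triangles lie close together on the right. They lie further apart for Pmvk, Srebf2, Scap and Ebp, higher in the fipronil rats, and for Soat2, higher in the vehicle rats. These differences were not tested.

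Other genes of the pathway were read from fixed lists. Of 14 further genes of sterol and isoprenoid synthesis, 0 were called and the median difference was 0.08. Fnta, a subunit of protein prenyltransferases, differed by -0.21 (limma adjusted p = 0.256). Of 10 further SREBP2 targets, 0 were called and the median was -0.09. Fads2, a fatty acid desaturase, differed by -0.27 (limma adjusted p = 0.258).

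Among 11 genes of SREBP processing and sterol-regulated degradation, 1 was called, with a list median of 0.05. Pgrmc1, a haem-binding membrane protein that has been linked to sterol synthesis and P450s, differed by 0.36 (1.29-fold, limma adjusted p = 0.0479). That call was kept under 12 of 32 alternative settings.

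Among 16 genes of sterol uptake, movement and export, 2 were called higher, Abcg5 and Abcg8, of which Abcg8 entered the test only through the fipronil arrays. Abcg5 and Abcg8 together encode the canalicular exporter that moves sterol into bile. Abcg5 moved from 1.24 to 4.88, a difference of 3.64 (limma adjusted p = 7.00e-06). Abcg8 was well above background on 2 of 7 vehicle and 8 of 8 fipronil arrays, so that most of its vehicle values are only bounds and no size or p is given for it. The list median was -0.03.

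Markers of liver cell types were read beside these results, and 0 were called in any of the 8 lists. All 8 hepatocyte markers had negative differences (6 at an unadjusted p under 0.05 in limma), with a median of -0.31 and a summed level, in multiples of the array percentile, of 2544 to 4519 in the vehicle and 2030 to 3008 in the fipronil rats. Of those 8 markers 6 were saturated on all 15 arrays, Apob on 5 vehicle and 8 fipronil arrays, and Apoa1 on 3 and 8. Mean array brightness was higher in the fipronil group, at 210 against 172. The part of saturation and of brightness in these differences was not tested. With probes saturated in this way, the negative differences and lower sums of these markers cannot be read as less hepatocyte RNA. Of 4 endothelial markers tested, 3 had an unadjusted p under 0.05 and were higher, with a median of 0.35 and summed levels of 56.3 to 77.2 and 67.3 to 128 in the same order. The 6 macrophage markers had a median of 0.18, the 7 of stellate cells and fibroblasts -0.07, the 4 of cholangiocytes -0.06, and the 2 each of lymphoid cells, neutrophils and erythroid cells 0.12, 0.54 and -0.09. The summed levels cover every listed gene with a probe, also those not tested. These were 6 endothelial genes, 5 of cholangiocytes, 5 of lymphoid cells and 3 of neutrophils. For the other non-hepatocyte lists the summed levels ran, vehicle then fipronil, from 55.2 to 183 and 75.1 to 152 for macrophages, 30.4 to 48.2 and 30.2 to 52.2 for stellate cells, and 9.55 to 49.3 and 8.12 to 25 for erythroid cells. They ran from 1.45 to 2.44 and 1.90 to 3.05 for cholangiocytes, 0.923 to 1.48 and 0.836 to 1.55 for lymphoid cells, and 0.224 to 0.460 and 0.241 to 0.806 for neutrophils. The part of cell makeup in the Insig2 difference was not tested.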

How the data were processed

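Array files hold spot intensity values that Agilent Feature Extraction 9.5.3.1 wrote from one-colour Cy3 scans, per the file headers; the values are background subtracted and detrended, with no scaling across arrays. The deposited value table holds log2 values, used as an alternative; the submitters' processing notes name Feature Extraction 9.5 and limma. Outlier spots were left out, spots of a probe averaged, and log2 processed intensity set against each array's 75th percentile. The brightest probe stood for a gene. A feature entered the two-sided test (limma 3.58.1's lmFit with eBayes, run in R 4.3.3) if at least 7 arrays had it well above background and at most 3 lacked it. Correlations used Python 3.11.15 and numpy 2.4.6. The script was tested on simulated data.

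Members and lists were chosen with earlier results of these data known. Named in full were members that passed, the 6 smallest p values, the largest and smallest within-group SD and the 4 control genes; other genes only if they passed or were 1 of the 2 of their list with the smallest p, and not every one is reported here. The array number limits precision. Exons under probes, and probe sequences, are not analysed here. Fits that leave out a rat or slide use the remaining arrays, and the replicate block left out fipronil 8.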

Additional observations from a re-analysis of the deposited data

Results flagged for a closer look

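Of 50 sets of a member and a group, 5 held a rat that stood far from the others of its group by Dixon's gap criterion, which chance alone meets in about 1 of 20 sets. Msmo1 was lowest in vehicle 1, at 7.76 against 8.30 in the next rat, and Hsd17b7 was lowest in the same rat, at 1.37 against 1.93. Vehicle 1 was also the rat with the lowest Hmgcs1. Sc5d was highest in fipronil 2, at 6.01 against 5.49. Srebf2 was highest in vehicle 4, at -1.03 against -1.46. Soat2 was lowest in fipronil 6, at 1.63 against 2.03. The sets share the same rats, and many of their genes varied together, so the sets are not independent.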

How the results depend on the processing

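Over 32 alternatives Insig2 stayed positive, between 0.64 and 0.88, and was called in 30; the member count called higher was 0 rather than 1 with array brightness as a covariate and without slide 1, and 0 members were called lower under all 32. The count of features called, 176, fell to 82 with no filter on dim probes, to 90 with the replicate block, to 39 with array brightness as a covariate, to 34 without slide 1 and to 49 without slide 4, and leaving out 1 rat at a time gave 85 to 287; the cause was not tested. The lowest count came without fipronil 8 and the highest without vehicle 3; it was 115 without fipronil 1, 110 without fipronil 7, and 103, 91 and 95 without vehicle 1, 2 and 7. Same-numbered rats correlated between -0.04 and 0.37, and 6 of the 7 pairs also shared a slide. Neither the labels nor every pair's correlation ties the numbers to a pairing, so rats were not paired. Same-numbered rats did share the sign of their Hmgcs1 deviation, as given above, which the main tests do not take up. For Hmgcs1 the replicate block gave an SE of 0.12, against 0.23 without fipronil 8 and unblocked, and 0.19 with slide as a block. Idi1 gave 0.14, 0.23 and 0.22 in the same order, Cyp51 0.11, 0.20 and 0.18, and Fdft1 0.10, 0.17 and 0.15. Fdps gave 0.12, 0.13 and 0.10, Ggps1 0.32, 0.31 and 0.26, and Soat2 0.12, 0.11 and 0.11. Whether the enzymes followed the replicate number was not tested. With the replicate block Insig2 differed by 0.74 (limma adjusted p = 0.0254). The member median lay between -0.12 and 0.09. Within vehicle rats alone 11 members followed Hmgcs1, against 17 in all. Soat2 stayed negative and Sc5d positive under all 32 and neither was called; Fdps, Msmo1, Ggps1 and 15 other members changed sign under at least 1. Saturation limits Fdps and Msmo1 most, and touches Tm7sf2 on 2 arrays and Hmgcs1 on 1, and 15 arrays limit all intervals.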
